A study of Mus musculus with 7 samples.

Results

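Oxidative phosphorylation is described here through 116 of the 56953 genes in the count tables. They are the protein-coding genes whose mouse symbols start with Nduf, Uqcr, Atp5, Sdha to Sdhd, or Cox and a digit, together with the 13 protein genes of the mitochondrial genome. The nuclear genome holds 103 of the 116, on 19 chromosomes, under 102 distinct symbols because Atp5o stands under 2 identifiers. RNA came from tumours of B16, a mouse melanoma line, in mice that had received radiotherapy (RT) at 8 Gy with an adeno-associated virus (AAV) vector. The vector was AAV-iIL12 in 3 mice and the control AAV-iLuc in 4. Tumours were taken on day 5 and sorted for live cells without the leukocyte marker CD45 and the endothelial marker CD31, and their poly(A) RNA was read with strand kept. All 7 mice had been irradiated and given a vector, so every comparison is between vectors after RT. The labels give no strain, age or sex, and the titles of the AAV-iIL12 libraries alone carry the letters WT. The series' design text counts libraries as mice, and p-values measure the spread between these libraries.

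The respiratory chain passes electrons from NADH through complex I, and from succinate through complex II, to ubiquinone. Complex III hands them to cytochrome c and complex IV to oxygen, and the proton gradient so built drives complex V, the ATP synthase. Mitochondrial DNA encodes core subunits of complexes I, III, IV and V, while complex II is wholly nuclear, so the others are built from both genomes. In melanoma cells the pathway is known to be raised by the MITF and PGC-1alpha axis, and it is studied as a target in tumours that resist treatment.

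Libraries held 16356653 to 19080587 counts. Il12a had 260, 272 and 259 counts in AAV-iIL12 and 0 in every AAV-iLuc library, and Il12b had 2 counts in AAV-iLuc replicate 1 and 0 in the other AAV-iLuc libraries. That replicate stood apart in its group: Cd74, a chaperone of class II MHC, was at 90.2 CPM (counts scaled to library size, here with TMM factors) against 1.34 to 8.28 in the other AAV-iLuc libraries, and the 13 leukocyte markers summed to 14.6 CPM against 1.49 to 3.09. In AAV-iIL12 the leukocyte sum was 6.37 to 11.8 CPM. The 7 melanocyte markers summed to 27845 to 28742 CPM in AAV-iIL12 and 22839 to 25991 CPM in AAV-iLuc, so genes of the labelled lineage were abundant, and 3 of them rose (Pmel, Mlana and Mitf). The 6 endothelial markers summed to 15.2 to 26.7 CPM against 19.4 to 24.9 CPM, with Cdh5 and Emcn at 0 in every library. The 7 fibroblast and pericyte markers summed to 43.3 to 106 CPM against 58.6 to 168 CPM, highest in AAV-iLuc replicate 3.

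Genes of both genomes were mostly lower with AAV-iIL12, by modest amounts. Of the 96 nuclear members that passed the low-count filter, 38 fell and 5 rose, and 53 were not called (quasi-likelihood test of edgeR, with p adjusted over all genes by Benjamini-Hochberg and a threshold of 0.05). Over all 13990 genes tested, 23.7% fell and 23.5% rose (47.2% either way), while 39.6% of the tested nuclear members fell and 5.21% rose. The median log2 fold change, AAV-iIL12 over AAV-iLuc, was -0.12 for the nuclear members and -0.005 for all genes tested, and 73 of the 96 were below 0. CPM of the groups did not overlap for 46 nuclear members lower and 6 higher, beside 26.7% and 25.9% of all genes tested. Of the 13 mitochondrial genes, 7 were tested, and 5 fell, 1 rose and 1 was not called. In bulk samples, fewer cells of a type and less RNA per cell cannot be told apart. The melanocyte marker sum moved the other way without overlap between the groups, and its part in these falls was not tested.

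**Figure D1:**
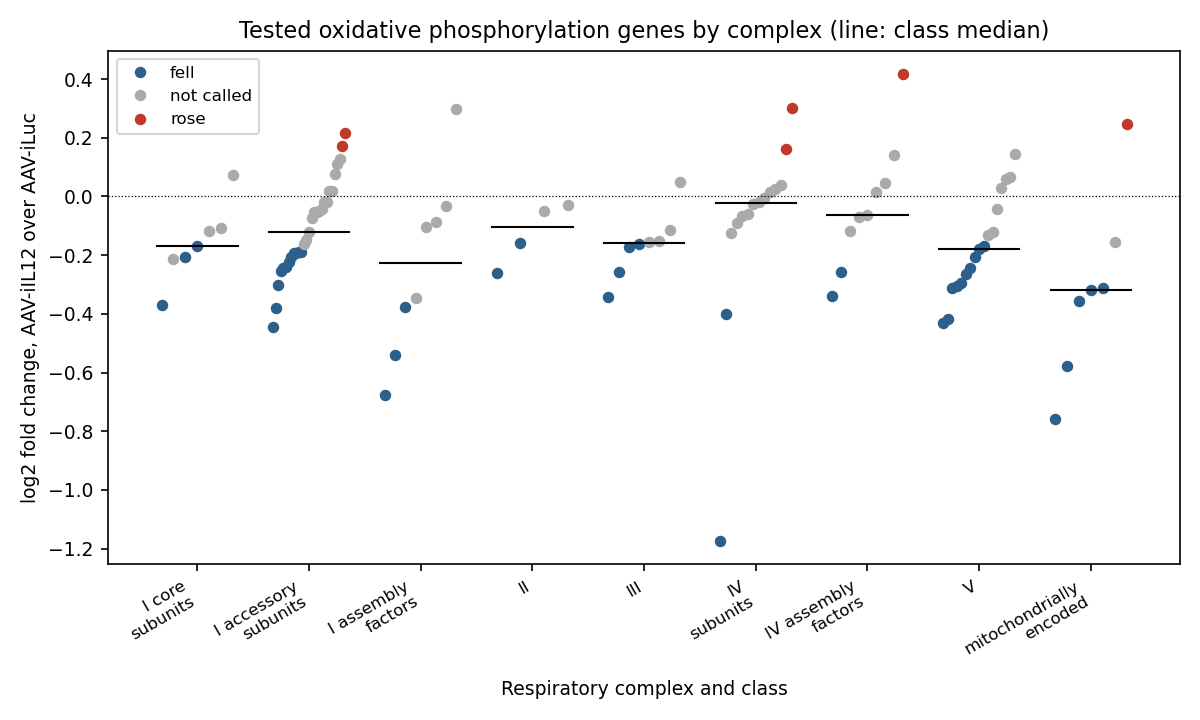
The vertical axis is the log2 fold change (AAV-iIL12 over AAV-iLuc) of each of the 103 tested members, one point per gene, in 8 nuclear classes and the mitochondrially encoded genes along the horizontal axis; colours mark genes that fell, rose or were not called, and black lines are class medians. Medians run from -0.23 (complex I assembly factors) to -0.02 (complex IV subunits) among the nuclear classes, and stand at -0.32 for the mitochondrial genes.

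A stretch of the mitochondrial genome has near-identical annotated copies in the nucleus. The copies lie on chromosome 1 between 24650616 and 24655278, minus strand (GRCm39), and are annotated as unprocessed pseudogenes. They match mt-Co2, mt-Atp6, mt-Co3, mt-Nd4l and the first 876 bases of mt-Nd4 at 100% and mt-Nd3 at 99.71%. The last 483 bases of mt-Co1 match at 99.79%, with the difference A1066T. In these tokens the base of the mitochondrial gene stands first, positions are counted from 1 at its first base, and the base of the copy stands last. To show how alike they are, the first 90 bases of mt-Nd4l and mt-Nd3 are given with their copies on chromosome 1, and bases 579 to 668 of mt-Nd2 with its more distant copy on chromosome 2 (GENCODE vM21 transcripts). Capitals mark bases that differ.
mt-Nd4l: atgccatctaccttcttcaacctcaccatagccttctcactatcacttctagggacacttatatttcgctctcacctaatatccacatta
Gm10222: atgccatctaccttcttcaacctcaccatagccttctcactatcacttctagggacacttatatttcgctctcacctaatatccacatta
mt-Nd3: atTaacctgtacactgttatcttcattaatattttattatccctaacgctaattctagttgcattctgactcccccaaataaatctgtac
Gm28438: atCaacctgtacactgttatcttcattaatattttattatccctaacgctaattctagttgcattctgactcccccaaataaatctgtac
mt-Nd2: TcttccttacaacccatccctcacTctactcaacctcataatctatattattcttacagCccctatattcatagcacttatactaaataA
Gm13339: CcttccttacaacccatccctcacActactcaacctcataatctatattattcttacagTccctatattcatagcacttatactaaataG
The mt-Nd4l stretch holds 0 differences, the mt-Nd3 stretch 1 (T3C) and the mt-Nd2 stretch 4 (T579C, T603A, C638T and A668G).

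The 6 genes mt-Co2, mt-Atp8, mt-Atp6, mt-Co3, mt-Nd3 and mt-Nd4l had at most 10 counts in any library. Between 97.8% and 99.9% of the 75-base stretches of 5 of them also occur in another annotated gene. The exception is mt-Atp8, with 0% shared in the transcripts used, which lies between mt-Co2 and mt-Atp6 and overlaps the latter. Their nuclear copies were also nearly empty, with at most 11 counts in any library apart from Gm28438 at 66 to 93. The other 7 genes had 444 to 177445 counts per library and shared 0% to 61.5% of their stretches: 61.5% for mt-Nd4, 39.8% for mt-Co1, 5.7% for mt-Nd2, 1.7% for mt-Nd5 and 0% for mt-Nd1, mt-Nd6 and mt-Cytb. The file headers hold no option for multiply mapped reads. The part of that choice in these counts was not tested, and the 6 near-empty genes support no comparison. For mt-Co1 and mt-Nd4 the shared bases are a limit on what their counts measure.

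**Figure D2:**
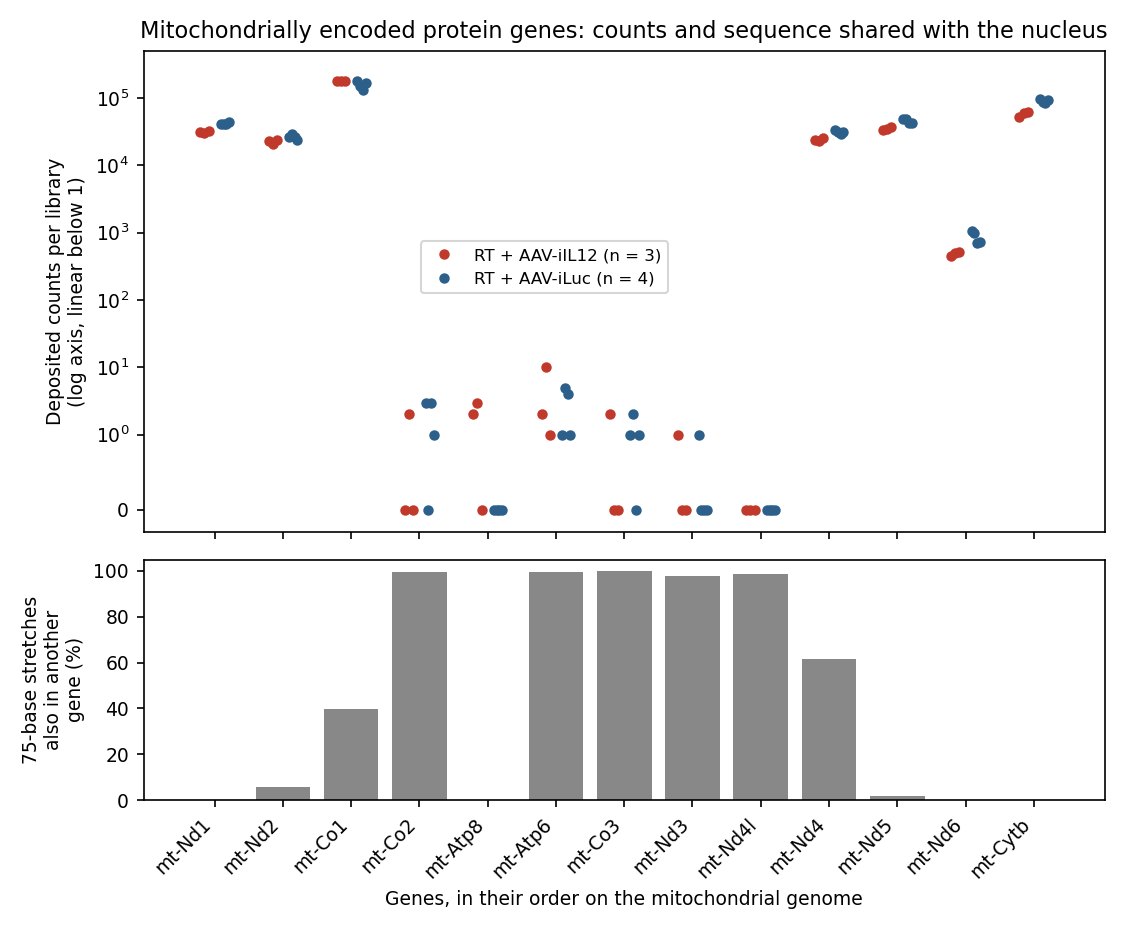
Upper panel, deposited counts per library (log axis, linear below 1) for the 13 mitochondrial protein genes in genome order, one point per library (red, AAV-iIL12, n = 3; blue, AAV-iLuc, n = 4); lower panel, the percentage of each gene's 75-base stretches that also occur in another annotated gene. The 6 genes from mt-Co2 to mt-Nd4l stay at or below 10 counts, and 5 of them share at least 97.8% of their stretches.

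Among mitochondrial genes, mt-Cytb, the cytochrome b of complex III and its only mitochondrial subunit, had the smallest p. It stood at 3217, 3230 and 3414 CPM in the AAV-iIL12 libraries and at 4982, 4829, 4989 and 4836 CPM in the AAV-iLuc libraries (mitochondrial genome, 14145 to 15288). Every AAV-iIL12 library was below every AAV-iLuc library, and the spread within each group was small beside the gap. It fell by 0.58 ± 0.04 on the log2 scale (SE, edgeR adjusted p = 4.56e-06), a change of -33.0%.

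In complex I, 4 mitochondrial genes fell too. Each encodes a membrane-arm subunit of NADH dehydrogenase. The gene mt-Nd6, which alone among the 13 is read from the opposite strand, stood at 27.1, 26.6 and 28.7 CPM against 54.3, 53.2, 41.2 and 37.1 CPM. AAV-iLuc replicates 1 and 2 were higher than replicates 3 and 4, and all were above the AAV-iIL12 libraries. It fell by 0.76 ± 0.13 on the log2 scale (edgeR adjusted p = 0.00102). The gene mt-Nd1 stood at 1901, 1612 and 1753 CPM against 2111, 2209, 2421 and 2238 CPM, without overlap, and fell by 0.36 on the log2 scale (edgeR adjusted p = 0.00169). The largest of them, mt-Nd5, was at 2007, 1869 and 2041 CPM against 2526, 2617, 2530 and 2176 CPM, and fell by 0.32. Falls were of like size in mt-Nd4, which fell by 0.31 from a mean of 1694 to 1365 CPM. The log2 fold change of mt-Nd2 was -0.16 (edgeR adjusted p = 0.237), and its groups overlapped.

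By contrast mt-Co1, the catalytic subunit of complex IV and the most abundant member per length in both groups, rose. It (mitochondrial genome, 5328 to 6872) was at 10747, 9635 and 9749 CPM in AAV-iIL12 and at 9182, 8323, 7859 and 8518 CPM in AAV-iLuc. The groups did not overlap, and AAV-iLuc replicate 1 came nearest to the AAV-iIL12 libraries. It rose by 0.25 ± 0.06 on the log2 scale (edgeR adjusted p = 0.00545). With scaling by library size alone its log2 fold change was 0.15 (edgeR adjusted p = 0.0462), still a rise. Its 39.8% of shared stretches stands beside this rise, and their part in it was not tested.

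Ratios within a library need no scaling between libraries. For each 100 counts of mt-Co1 there were 29.9, 33.5 and 35.0 counts of mt-Cytb in AAV-iIL12 and 54.3, 58.0, 63.5 and 56.8 in AAV-iLuc. The same ratio for mt-Nd1 was 16.7 to 18.0 against 23.0 to 30.8, and for mt-Nd5 it was 18.7 to 20.9 against 25.6 to 32.2. The ratio of mt-Nd2, which itself was not called, was 11.7 to 13.5 against 14.2 to 19.9. All of these ratios were lower in each AAV-iIL12 library than in any AAV-iLuc library, so these mRNAs and mt-Co1 changed unequally. They share mt-Co1, which rose, and so are not separate observations. The ratio of mt-Nd6 to mt-Nd5, genes of opposite strands, was 1.39 ± 0.04 per 100 (SD, n = 3) against 1.88 ± 0.25 (SD, n = 4), also without overlap. Counts of mt-Nd1 for each 100 of mt-Nd2 were 133 to 143 against 141 to 185, and the groups overlapped. The share of all counts on the 13 genes was 1.90% ± 0.09 (SD, n = 3) in AAV-iIL12 and 2.18% ± 0.05 (SD, n = 4) in AAV-iLuc. Without mt-Co1, it was 0.933% against 1.31%. Of the 13 genes, 6 were near empty (at most 10 counts in any library), so these shares rest on the other genes. Summed TMM-scaled CPM of the 13 genes overlapped between the groups (18759 to 20766 against 20619 to 21943).

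**Figure D3:**
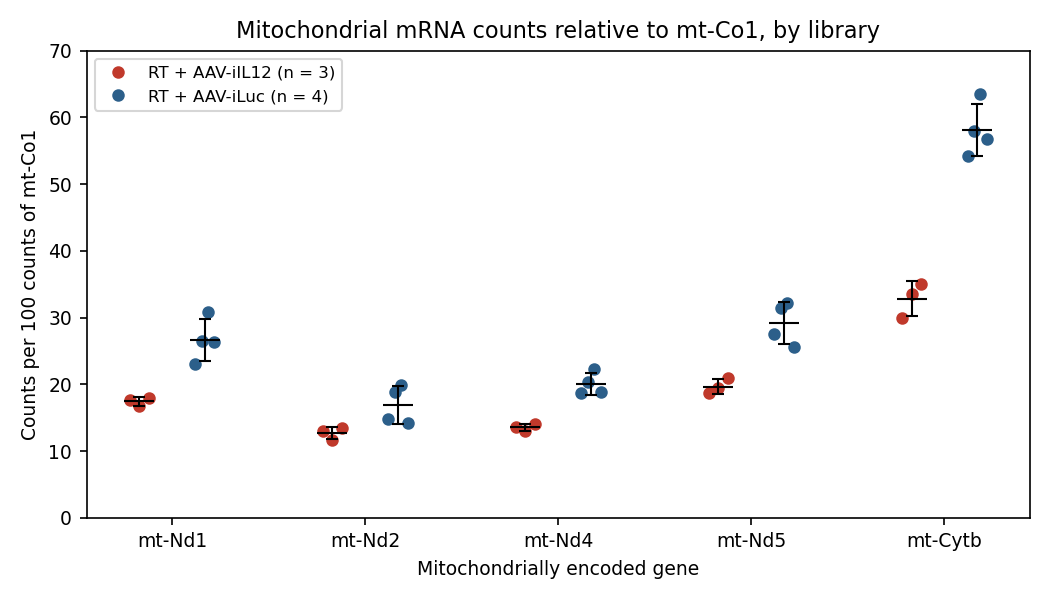
Counts of 5 mitochondrial mRNAs for each 100 counts of mt-Co1 in the same library (vertical axis), one point per library, with black bars for the mean ± SD of AAV-iIL12 (red, n = 3) and AAV-iLuc (blue, n = 4). The AAV-iIL12 points lie below the AAV-iLuc points for every gene, by most for mt-Cytb (32.8 ± 2.61 against 58.1 ± 3.90).

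The 2 ribosomal RNAs of mitochondria, which carry short tails and lie upstream of mt-Nd1, were not called as lower. The smaller one, mt-Rnr1, stood at 343, 235 and 280 CPM against 263, 191, 172 and 182 CPM. Its groups overlapped through AAV-iLuc replicate 1, and it rose by 0.50 ± 0.16 on the log2 scale (edgeR adjusted p = 0.0242). The call ended with scaling by library size alone (0.0521) and with any 1 library left out other than AAV-iIL12 replicate 2 and AAV-iLuc replicate 1 (0.0548 to 0.0961). The log2 fold change of mt-Rnr2 was 0.35 (edgeR adjusted p = 0.174). Libraries selected for poly(A) measure ribosomal RNA poorly.

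Among the 8 nuclear classes of members, complex V had the largest share of falls. Of its 17 tested genes 10 fell and 0 rose, a share of 58.8% beside 23.7% of all genes, with a median log2 fold change of -0.18. At an unadjusted p under 0.05 in edgeR, 0 were higher, and DESeq2 and limma-voom called 0 higher. The genes of the catalytic head led in abundance. Atp5a1 (chromosome 18, 77861429 to 77870569, GRCm39), the alpha subunit, was at 614, 713 and 684 CPM against 859, 912, 943 and 901 CPM. Each AAV-iIL12 library was below each AAV-iLuc library, and replicate 1 was the lowest of its group in both. Atp5a1 fell by 0.43 ± 0.07 on the log2 scale (edgeR adjusted p = 0.000419). Atp5b, the beta subunit that carries the catalytic sites, was at 1258, 1353 and 1313 CPM against 1391, 1517, 1527 and 1449 CPM and fell by 0.17 (edgeR adjusted p = 0.0243). There were 51.2 ± 2.09 counts of Atp5a1 for each 100 of Atp5b in AAV-iIL12 (SD, n = 3) and 61.5 ± 0.92 in AAV-iLuc (SD, n = 4), so these partners moved unequally. Atp5o, of the peripheral stalk, fell by 0.31, Atp5f1, also of the stalk, by 0.25, and Atp5k, of the membrane part, by 0.31.

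Subunit c, which forms the rotating ring, is made from 3 genes that encode the same mature protein with different import sequences. Atp5g1 (chromosome 11, 95959678 to 95966496) was at 52.2, 60.2 and 54.9 CPM against 71.0, 75.3, 78.1 and 74.2 CPM and fell by 0.42 ± 0.06 on the log2 scale (edgeR adjusted p = 0.000363). Atp5g3, which held most of the subunit c counts, fell by 0.30 (edgeR adjusted p = 0.00363). Atp5g2 was at 43.6 to 48.4 CPM against 43.3 to 46.9 CPM, with overlapping groups and a log2 fold change of 0.03 (edgeR adjusted p = 0.714). The share of subunit c counts was 14.2% against 15.7% for Atp5g1, 11.8% against 9.50% for Atp5g2 and 74.0% against 74.8% for Atp5g3. The shares of Atp5g1 and Atp5g2 did not overlap between groups. Of the 75-base stretches of Atp5g2, 35.8% occur in other genes, so its counts may be uncertain.

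In complex I, 15 of 36 tested nuclear subunit genes fell and 2 rose, shares of 41.7% and 5.56% beside 23.7% and 23.5% of all genes. Of the 7 core subunits, which hold the flavin, the iron-sulphur clusters and the quinone site, 3 fell (Ndufs1, Ndufv2 and Ndufv1) and 0 rose, with 0 higher also at an unadjusted p in edgeR and in DESeq2 and limma-voom. Ndufs1 (chromosome 1, 63182755 to 63215992), the largest of the iron-sulphur subunits, was at 153, 178 and 174 CPM against 215, 221, 223 and 212 CPM. The AAV-iIL12 libraries all lay lower, and Ndufs1 fell by 0.37 ± 0.06 on the log2 scale (edgeR adjusted p = 0.000809).

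Of the 29 accessory subunits of complex I, which surround the core, 12 fell and 2 rose (41.4% and 6.90%, beside 23.7% and 23.5% of all genes). Ndufb8 fell by 0.45 on the log2 scale, from 20.8 ± 0.76 to 15.3 ± 0.31 CPM (SD, edgeR adjusted p = 0.000657). Ndufa12 fell by 0.38 and Ndufa10 by 0.30, and neither had overlapping groups. The genes that rose were Ndufa6, by 0.22, and Ndufa7, by 0.17. Neither call held with scaling by library size alone (edgeR adjusted p = 0.175 for Ndufa6 and 0.239 for Ndufa7), or without AAV-iIL12 replicate 1 (0.0937 and 0.0635), AAV-iLuc replicate 1 (0.0644 and 0.0568) or AAV-iLuc replicate 3 (0.0543 and 0.0538). Ndufa6 was lost also without AAV-iLuc replicate 2 (0.0518) and Ndufa7 without AAV-iIL12 replicate 3 (0.0783). Ndufb1-ps, typed as a long noncoding RNA in GENCODE vM21 and so outside the 116, rose by 0.43 (edgeR adjusted p = 0.000226).

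Assembly factors build complex I and leave it. Of 8 tested, 3 fell (37.5%, beside 23.7% of all genes) and 0 rose, with a median log2 fold change of -0.23; 1 was higher at an unadjusted p in edgeR, and 0 rose in DESeq2 and limma-voom. Ndufaf4 was at 14.7, 16.3 and 16.8 CPM against 25.6, 22.9, 23.1 and 21.2 CPM and fell by 0.54 ± 0.09 on the log2 scale (edgeR adjusted p = 0.000711). Ndufaf2 fell by 0.68 ± 0.10, from 11.6 ± 0.56 to 7.26 ± 0.48 CPM (SD). Of its 75-base stretches, 63.2% occur in other annotated genes on either strand, so its counts may be uncertain. Ndufaf7, a methyltransferase, fell by 0.38.

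Complexes II and III had 0 genes higher in edgeR, also at an unadjusted p, and 0 in DESeq2 and limma-voom. In complex II, which also serves the tricarboxylic acid cycle, Sdhd and Sdha fell by 0.26 and 0.16, while Sdhc and Sdhb had log2 fold changes of -0.05 and -0.03. Sdhd, a membrane anchor, was at 120, 137 and 131 CPM against 145, 160, 159 and 154 CPM, without overlap. In complex III, 4 of 8 fell, and in complex II 2 of 4, a share of 50.0% in each beside 23.7% of all genes. Uqcrc1 (chromosome 9, 108765701 to 108778691), a core protein, was at 164, 178 and 168 CPM against 208, 209, 227 and 218 CPM, without overlap, and fell by 0.34 ± 0.06 on the log2 scale (edgeR adjusted p = 0.000683). Uqcr11, Uqcrfs1 (the Rieske iron-sulphur protein) and Uqcrc2 fell by 0.26, 0.17 and 0.16. Uqcr10, the most abundant per length at 725 against 876 TPM (counts scaled by the deposited gene lengths and then to a common total), was not called (edgeR adjusted p = 0.0699). Cyc1, the cytochrome c1 of the same complex, lies outside the symbol rule and fell by 0.48 ± 0.07 (edgeR adjusted p = 0.000218), and Cycs, cytochrome c itself, fell by 0.25.

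**Figure D4:**
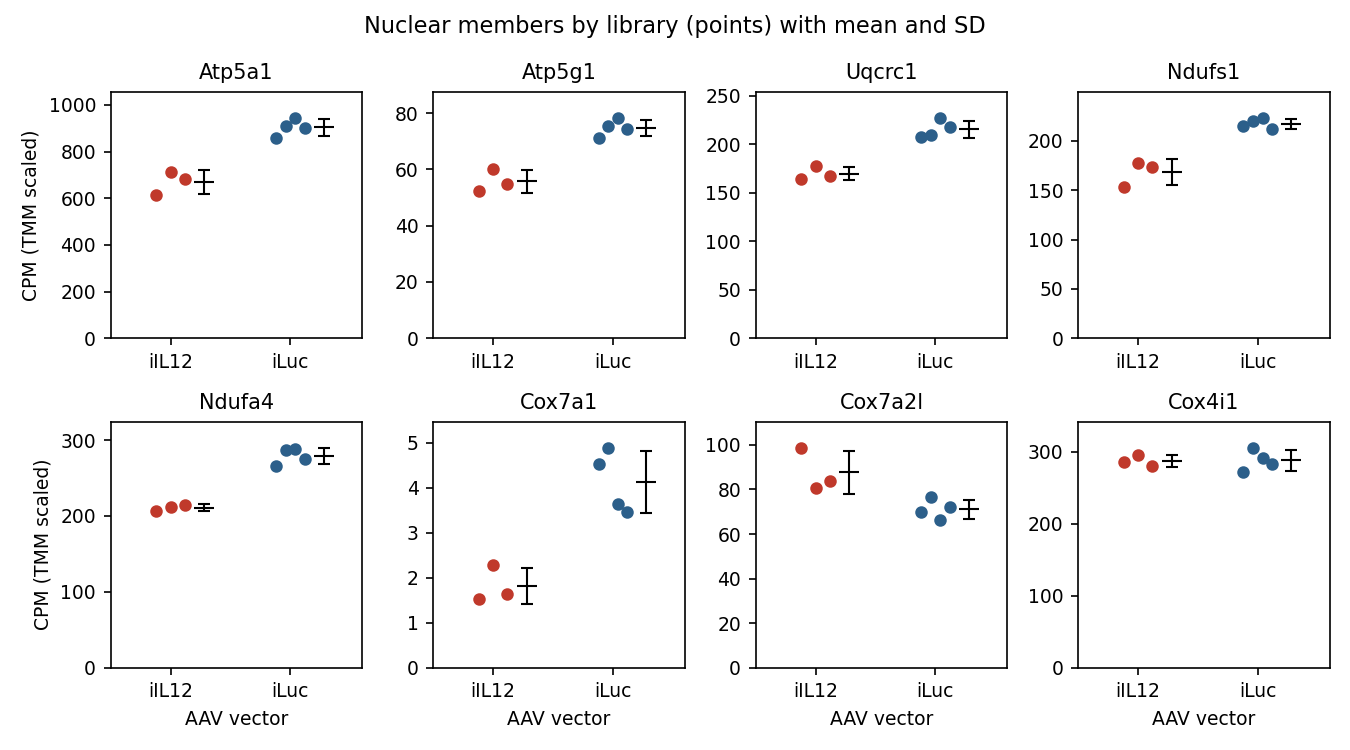
TMM-scaled CPM (vertical axes, from 0, each panel with its own scale) of 8 nuclear members in the 3 AAV-iIL12 libraries (red) and 4 AAV-iLuc libraries (blue), with black bars for the mean ± SD of each group. Atp5a1, Atp5g1, Uqcrc1, Ndufs1, Ndufa4 and Cox7a1 lie lower in AAV-iIL12 without overlap, Cox7a2l lies higher, and Cox4i1 overlaps.

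Complex IV had few calls among its nuclear subunit genes: of 14 tested, 2 fell and 2 rose, shares of 14.3% each beside 23.7% and 23.5% of all genes, with a median log2 fold change of -0.02. The class was set by symbol, so 1 of the 2 rises is Cox7a2l, the related protein described below. Cox4i1, a subunit needed early in assembly, was at 287 ± 7.79 CPM against 288 ± 14.1 CPM (SD, edgeR adjusted p = 0.955). The most abundant nuclear subunit per length, Cox8a, had a log2 fold change of -0.03, with 1226 against 1355 TPM (TPM carry no TMM scaling). In the nuclear genes of complexes I, II, III and V other than assembly factors, 31 of 65 fell and 2 rose. The difference between complex IV and the other complexes was not tested.

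Both falls in complex IV were in genes with paralogs, a trait shared by Cox4i1, Cox6a1 and Cox6b1, which were not called. Ndufa4, first assigned to complex I and now placed in complex IV (chromosome 6, 11900291 to 11907496), was at 206, 212 and 215 CPM against 266, 287, 288 and 275 CPM. The groups were far apart relative to their spread, and Ndufa4 fell by 0.40 ± 0.05 on the log2 scale (edgeR adjusted p = 0.000217). Its paralog AA467197, also called Nmes1 and outside the symbol rule, had 54, 40 and 31 counts against 21, 7, 13 and 12. AA467197 rose by 1.72 ± 0.35 on the log2 scale (edgeR adjusted p = 0.00281), and there were 0.793 to 1.59 counts of it for each 100 of Ndufa4 in AAV-iIL12 against 0.134 to 0.411 in AAV-iLuc. Its highest counts in each group were in replicate 1, as were the highest leukocyte marker sums (11.8 and 14.6 CPM), whose part was not tested. The other paralog, Ndufa4l2, known as a target of hypoxia signalling, had 3 to 20 counts per library (edgeR adjusted p = 0.927).

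Cox7a1 (chromosome 7, 29883569 to 29885503), the isoform of heart and skeletal muscle, had 25, 42 and 30 counts in AAV-iIL12 and 87, 89, 61 and 67 in AAV-iLuc. It was lower in each AAV-iIL12 library and fell by 1.17 ± 0.22 on the log2 scale (edgeR adjusted p = 0.00138), more than any other tested member. Skeletal muscle markers (10 genes) summed to 2.03 to 2.66 CPM against 2.44 to 3.07 CPM, and Myh1, Myh2 and Myh4 were at 0 in every library. The widely expressed isoform Cox7a2 was at 175 ± 4.17 CPM against 156 ± 9.59 CPM and rose by 0.16 (edgeR adjusted p = 0.0449), a call that ended with scaling by library size alone (0.313) and with any 1 library left out other than AAV-iLuc replicate 2 (0.0583 to 0.125). Cox7a2l, a related protein that joins complexes III and IV into supercomplexes (chromosome 17, 83809347 to 83824759), was at 98.6, 80.5 and 83.9 CPM against 69.7, 76.4, 66.1 and 72.2 CPM. It rose by 0.30 ± 0.08 (edgeR adjusted p = 0.00903), the nuclear rise that held with each library left out. The tissue-restricted isoforms Cox4i2, Cox6a2, Cox6b2 and Cox8b had at most 3 counts in any library, Cox7b2 and Cox8c had 0, and none of these 6 was tested. The common partners Cox6a1 and Cox6b1 had log2 fold changes of -0.06 and -0.12 and were not called.

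Of the 9 complex IV assembly genes, 2 fell and 1 rose, shares of 22.2% and 11.1%, the first near the 23.7% of all genes. Cox10, which makes haem O for the enzyme, fell by 0.34, without overlap between groups (edgeR adjusted p = 0.00552). Cox20, which attends the mitochondrially made subunit 2, fell by 0.26, with 76.1% of its 75-base stretches also in other genes. Cox18, which moves that subunit into the membrane, rose by 0.42 ± 0.14 (edgeR adjusted p = 0.0349). That call ended with scaling by library size alone (0.0815) and with replicate 1 or 3 of AAV-iIL12, or replicate 1 or 4 of AAV-iLuc, left out (0.0589 to 0.106).

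Per length, 6 of the mitochondrial genes (mt-Co1, mt-Cytb, mt-Nd1, mt-Nd2, mt-Nd5 and mt-Nd4) were above every nuclear member in mean TPM. Of the rest, mt-Nd6 was lower, at 192 against 352 TPM, and the 6 near-empty genes support no ranking. Mean TPM were 23533 against 21566 for mt-Co1 and 10412 against 16874 for mt-Cytb, while the highest nuclear genes, Atp5b and Cox8a, stood at 1119 against 1365 and at 1226 against 1355. Summed TPM of the 103 nuclear members was 22396 ± 599 (SD, n = 3) in AAV-iIL12 and 26389 ± 688 (SD, n = 4) in AAV-iLuc, without overlap. The nuclear sum in TMM-scaled CPM was 0.903 of that in AAV-iLuc, and that of complex V 0.853. Deposited lengths sum all annotated exons of a gene, so TPM understates short genes that carry long rare exons.

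Promoters of these genes are known for sites of NRF1, ETS factors such as GABP, and YY1. RefSeq promoters (GRCm38.p6, 250 bases before to 50 after the start) were matched for 83 members. The NRF1 motif (GCGCA, any base, GCGC) stood in 22.9% of the 83 and in 5.19% of all 27025 genes with a promoter. The ETS motif CCGGAAG stood in 27.7% against 9.93%, and the YY1 motif AANATGGCG in 14.5% against 2.76% (both strands, motifs counted separately even where they overlap). No limit to protein-coding or expressed genes was set on the 27025, while the 83 are all protein-coding. The sets may thus differ in kind, and a like background was not tested. Promoters of 4 genes that fell are shown, 120 bases each, since they carry 1 or more of these letters; capitals mark the NRF1 and ETS matches.
Sdha, chr13:74350241-74350360, minus strand: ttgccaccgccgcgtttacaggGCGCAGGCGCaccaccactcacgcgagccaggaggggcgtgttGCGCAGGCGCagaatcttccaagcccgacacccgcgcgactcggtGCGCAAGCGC
Sdhd, chr9:50603850-50603969, minus strand: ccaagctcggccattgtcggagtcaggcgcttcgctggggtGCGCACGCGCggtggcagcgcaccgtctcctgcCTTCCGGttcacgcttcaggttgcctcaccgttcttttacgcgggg
Atp5k, chr5:108434400-108434519, minus strand: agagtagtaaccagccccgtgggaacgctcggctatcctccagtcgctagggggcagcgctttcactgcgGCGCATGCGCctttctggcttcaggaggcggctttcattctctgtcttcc
Uqcr11, chr10:80406822-80406941, minus strand: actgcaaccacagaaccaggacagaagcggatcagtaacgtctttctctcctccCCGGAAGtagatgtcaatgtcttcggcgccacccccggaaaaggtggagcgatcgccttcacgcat
Within the bases shown, Sdha holds 3 NRF1 matches, Sdhd 1 NRF1 match and 1 ETS match on the opposite strand, Atp5k 1 NRF1 match and Uqcr11 1 ETS match. Of the 34 matched genes that fell, 10 held the NRF1 motif and 7 the ETS motif. Of the 42 that were not called, 8 and 16 did. A match is a run of letters and says nothing of binding.

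The wider mitochondrial programme was counted from lists of other genes, to be read beside the 23.7% of all genes that fell and the 23.5% that rose. In every list some calls ended with 1 library left out, such as those of Etfa, Coa7, Tfam, Mrpl3, Nrf1, Idh3g and Hspa9. Of 77 tested mitochondrial ribosomal protein genes, 42 fell and 4 rose (54.5% and 5.19%), with a median log2 fold change of -0.25. The rises of Mrpl27, Mrpl32 and Mrps34 were among the calls lost with 1 library left out, as were several falls. Mrpl42, Mrpl28 and Mrpl12 fell by 0.73, 0.63 and 0.61. Of 32 genes for mitochondrial DNA copying, transcription and RNA handling, 13 fell and 2 rose (40.6% and 6.25%). Polrmt, the mitochondrial RNA polymerase, fell by 0.40, Twnk, the replicative helicase, by 0.51, and Supv3l1, an RNA helicase of the degradosome, by 0.52. Lrpprc, which stabilises mitochondrial mRNAs, was at 79.8, 97.8 and 94.4 CPM against 122, 123, 131 and 122 CPM and fell by 0.46. Polg2, a subunit of the mitochondrial DNA polymerase, rose by 1.02.

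Of 24 genes of the tricarboxylic acid cycle and pyruvate entry, 15 fell and 3 rose (62.5% and 12.5%, beside 23.7% and 23.5% of all genes). Idh2 and Fh1, which encode isocitrate dehydrogenase 2 and fumarase, fell by 0.72 and 0.57. Pdk2, a kinase that restrains pyruvate dehydrogenase, rose by 0.79. Of 23 genes of the outer membrane, carriers and import, 12 fell (52.2%) and 0 rose (median log2 fold change -0.15), with 0 higher also at an unadjusted p in edgeR and in DESeq2 and limma-voom. Timm50, of the inner membrane import channel, and Hspd1, the matrix chaperonin, fell by 0.74 and 0.71.

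Of 37 assembly factors outside the symbol rule, 9 fell and 5 rose, shares of 24.3% and 13.5%; the first is near the 23.7% of all genes that fell. Cmc2 fell by 0.91 and Tmem126a by 0.41. Among 13 electron carriers and other subunits, 5 fell and 2 rose (38.5% and 15.4%), and Aifm2, a ubiquinone reductase known as a guard against ferroptosis, rose by 0.71. Of 19 regulators of respiratory genes, 3 fell (Nrf1, Gabpa and Hcfc1) and 4 rose (Perm1, Sirt1, Mitf and Myc), shares of 15.8% and 21.1%, both below those of all genes. Mitf, the melanocyte master factor, was at 1253, 1199 and 1223 CPM against 935, 1066, 1067 and 1048 CPM and rose by 0.25. The calls of Nrf1 and Gabpa ended without AAV-iIL12 replicate 2 (edgeR adjusted p = 0.101 and 0.0511) and without other single libraries. Perm1, known from muscle, had 18 to 29 counts against 6 to 10.

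**Figure D5:**
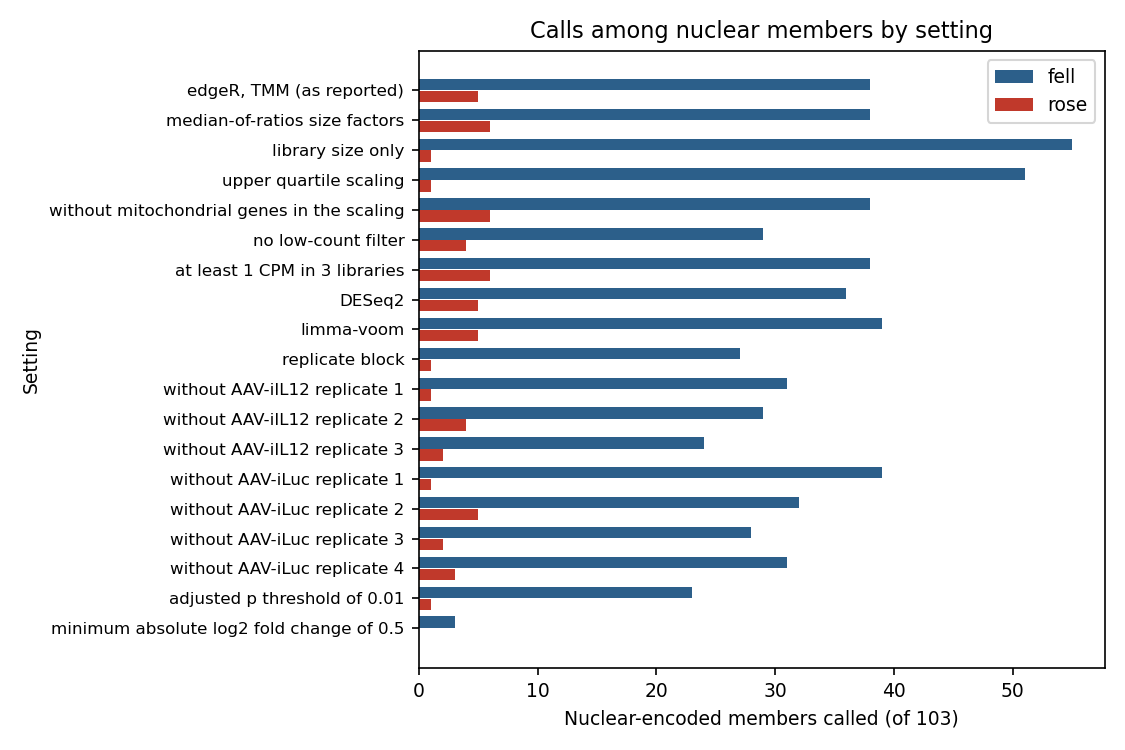
Numbers of nuclear members called (horizontal axis) that fell (blue) or rose (red) under each setting of the analysis (vertical axis), the reported one at the top. Falls run from 23 to 55 across settings without a minimum fold and drop to 3 at a minimum absolute log2 fold change of 0.5. At that minimum, 1564 of all 13990 genes tested fell. Rises stay between 0 and 6.

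The number of falls depended on scaling and on single libraries, and the direction did not. With scaling by library size alone, which moved the median of all genes to -0.10, 55 nuclear members fell and 1 rose. Of all 13990 genes tested, 4460 fell and 2506 rose there, so the all-gene shares of the reported fit do not apply. Without AAV-iLuc replicate 1, 39 nuclear members fell and 1 rose, beside 3079 and 3152 of all 13801 genes tested. Without AAV-iIL12 replicate 3, 24 fell and 2 rose, beside 2774 and 2898 of all 14311 genes tested. With each library left out in turn, 23 of the 38 nuclear falls, 1 of the 5 nuclear rises and all 6 mitochondrial calls were called every time. Of the falls named above, those of Ndufv1, Sdha, Uqcrfs1, Uqcrc2, Cox20 and Atp5b were among the 15 lost at least once. Sdha was lost with any 1 library left out other than AAV-iLuc replicate 1 (edgeR adjusted p = 0.0651 to 0.129), Cox20 with any other than AAV-iLuc replicate 3 (0.0549 to 0.103) and Uqcrfs1 without AAV-iIL12 replicate 3 (0.0896). Atp5b was lost without replicate 1 or 3 of AAV-iIL12, or replicate 2 or 3 of AAV-iLuc (0.0528 to 0.0691). Ndufv1 was lost without any 1 AAV-iIL12 library or AAV-iLuc replicate 4 (0.0505 to 0.0653), and Uqcrc2 without replicate 1 or 3 of AAV-iIL12, or replicate 2, 3 or 4 of AAV-iLuc (0.0581 to 0.141). Under the settings plotted, 0 members were called in the opposite direction.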

How the data were processed

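The 116 genes and the lists were chosen with earlier results of these data known. Values are raw counts per gene, deposited by the authors, who per the file headers used featureCounts 1.6.0 over exons of GENCODE vM32, reverse-stranded and paired. STAR 2.7.9a, FastQC 0.11.8, GRCm39, edgeR and limma stand in the submitters' processing notes. Symbols came from GENCODE vM21 by identifier (52029 of 56953 matched, with 99.4% of counts). Gene positions were taken from the files (GRCm39); promoters are on GRCm38.p6. No row was left out of the library totals.

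AAV-iIL12 (n = 3) was compared with AAV-iLuc (n = 4) by the quasi-likelihood F test of edgeR 4.0.16 (R 4.3.3) on all genes, with TMM, filterByExpr and Benjamini-Hochberg adjustment at 0.05; the standard error was derived from F. CPM are scaled by TMM. TPM were computed from the deposited lengths. Shared sequence is the percentage of 75-base stretches also present in another gene's transcripts, searched on both strands. Genes that overlap at one place and copies elsewhere were not told apart, so it does not measure how many reads were misplaced. On counts simulated for this comparison, 13738 genes were tested and 32 to 34 were changed at each fold. Recovered were 32.4% of genes raised 1.25-fold, 75.8% raised 1.5-fold and 93.9% raised 2.0-fold. Of genes lowered to 0.8, 0.667 and 0.5, 29.4%, 81.2% and 87.9% were recovered, and 3.65% of calls were false. Smaller changes were thus missed more often there. Far fewer genes were changed than the 47.2% called in the data, so these rates do not carry over to the data.

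Named genes were all mt- genes, in each class and list the 3 smallest p and the most abundant member, set isoform groups, and Cyc1 and Cycs. Further members named were chosen after their values were seen. Alternatives were other scalings, filters, DESeq2 1.42.0, limma-voom (limma 3.58.1), thresholds, the replicate number as a block and each library left out. No pair of libraries was a duplicate (chi-square per gene 3.49 to 14.1). The labels used here give no sequencing batch. A result for 1 member is not reported here.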

Additional observations from a re-analysis of the deposited data

Results flagged for a closer look

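The 4 AAV-iLuc libraries were checked over 99 measures for a library far from the other libraries of the group, and 3 were found. Chance gives about 1 in 20 such groups, so 3 among 99 is no more than chance alone would give. Cox6b1, a complex IV subunit, was at 173.4 CPM in AAV-iLuc replicate 1 and between 184.5 and 186.7 in the other AAV-iLuc libraries. Mitf was at 934.9 CPM in the same library and between 1048 and 1067 in the others. Lrpprc was at 131.3 CPM in AAV-iLuc replicate 3 and between 121.9 and 123.2 in the others.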

How the results depend on the processing

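Of nuclear members, 38 fell and 5 rose as reported. Rises numbered 1 with scaling by library size alone, 1 with upper quartile scaling, 1 at a threshold of 0.01 and 0 at a minimum absolute log2 fold change of 0.5. Of all 13990 genes tested, 2506, 2650, 2391 and 1698 rose there, in the same order. With each library left out, nuclear rises ranged from 1 to 5. Falls numbered 23 at the threshold of 0.01 and 3 at the minimum fold change. Of all 13990 genes tested, 2296 and 1564 fell at these settings. At the minimum fold change the share of falls was thus lower among the 96 tested nuclear members than among all genes. With each library left out, nuclear falls numbered 24 (without AAV-iIL12 replicate 3) to 39 (without AAV-iLuc replicate 1). At the minimum fold change, 0 mitochondrial genes rose and 2 fell. Deviations of same-numbered libraries from their group means correlated at 0.088, 0.034 and -0.049 for replicates 1, 2 and 3. The AAV-iLuc library closest in deviation was replicate 1 for AAV-iIL12 replicate 1 and replicate 4 for replicates 2 and 3. Whether same-numbered libraries share a batch or handling was not tested. With the replicate number as a block, 27 nuclear members fell and 1 rose, beside 2828 and 2832 of all 13990 genes tested. Elsewhere nuclear falls were 55 with library size alone, 51 with upper quartile scaling, 36 with DESeq2, 39 with limma-voom and 29 without a low-count filter. Falls among all genes tested were 4460, 4225, 3095, 3294 and 3143, in the same order. Without the low-count filter more genes were tested (27255). For other changes the cause was not tested. A gene called in neither of 2 fits had no direction to keep. Depth did not limit the abundant members, but Cox7a1, AA467197 and Perm1 rest on under 100 counts per library.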
